A study of Homo sapiens with 8 samples.

Results

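The genes of glucose breakdown and of the response to low oxygen were read across 8 arrays as a set of 41 genes, chosen by name out of the 43317 gene names on the array. Each gene was found through the gene name column of the scanner output, and the 41 genes had 53 probes. They were sorted by role into 4 genes of glucose uptake and phosphorylation, 13 core glycolysis enzymes, 3 glycolysis regulators, 4 genes of lactate, 4 of oxygen sensing and 13 hypoxia targets. The arrays were 2-colour arrays without replicates. On each one, RNA of cancer cells transfected with 1 mature microRNA (miRNA) by Lipofectamine RNAiMAX was labelled with Cy5, and RNA of mock cells from the same line with Cy3. The labels call the Cy3 sample mock and give its transfection as none, so whether those cells received the lipid reagent or a control RNA is not given there. HCT116, a colon cancer line, received a strand of miR-139 (miR-139-5p or else miR-139-3p) or of miR-143 (miR-143-5p or else miR-143-3p). PANC-1, a pancreatic cancer line, received a guide strand of the miR-30 family (miR-30c-5p or else miR-30a-5p) or a passenger strand of it (miR-30c-2-3p or else miR-30a-3p). HK2 was the glycolysis gene that the study followed up, and the question asked here was whether the rest of the pathway moved with it.

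Glycolysis takes up glucose through GLUT transporters, traps it as glucose 6-phosphate by a hexokinase and splits it to pyruvate, which lactate dehydrogenase can turn into lactate for export. When oxygen is short, the prolyl hydroxylases that mark HIF proteins for destruction slow down, and HIF transcription factors then switch on many of these enzymes together with genes of blood vessel growth, mitophagy and pH control. Many cancer cells run glycolysis at a high rate even with oxygen present. A miRNA lowers transcripts that pair with its seed, a short stretch near its 5′ end.

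All values below are log2 ratios of Cy5 over Cy3 unless called a level, so that a negative ratio means less RNA in the transfected cells than in the mock cells. With 1 array per miRNA no error between cultures and no test could be had, and a gene was called lower or higher when its ratio was at least 1 away from 0, which is 2-fold. A gene was counted as detected on an array when at least 1 channel of its probe was well above background. Of the 41 genes, 37 were detected on all 8 arrays, and 36 were above background in both channels of all 8. The median SD between the 10 spots of a probe was 0.0393 to 0.0646 per array over 300 such probes, which is the spread within 1 hybridisation only. The 8 arrays shared 1 slide and 1 scan, with HCT116 in row 1 and PANC-1 in row 2, so position on the slide and cell line cannot be told apart. On the array with the miR-143-3p label, genes whose probes carry a match to the miR-143-3p seed were 2-fold lower about as often as other genes (1.01% of 199 genes against 0.924% of the rest), so that array is named by its label throughout.

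HK2 had its lowest ratios on 3 of the 8 arrays. It was the lowest of 39 detected genes of the set with miR-139-3p and the lowest of 38 on the array with the miR-143-3p label, and it ranked number 4 from the bottom of 37 with miR-30c-2-3p. On these 3 arrays the numbers of the 13 core enzymes that were 2-fold lower were 0, 1 and 0, where 2.82%, 0.925% and 4.14% of all detected genes were lower. At those shares fewer than 1 of 13 genes would pass, so the counts do not set the core enzymes apart from other genes. Over all 8 arrays, 10 of the 41 genes were 2-fold from mock on at least 1 array and 31 never were, 2 of which (CA9 and CA12) were detected on no array. Of the 303 detected values, 15 passed 2-fold (4.95%), against 2.13% of the values of all detected genes over the 8 arrays. Only HK2, SLC2A1, NDRG1 and ADM passed it on more than 1 array.

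Set beside all detected genes, the median of the members lay farthest from the median of all genes with miR-139-3p, and, where arrays were scaled by their median alone (median centring), with miR-30c-5p (0.60 against 0.21). With miR-139-3p, 3 of 39 members were 2-fold lower, against 2.82% of all detected genes, and 0 were higher, against 2.11%. The median of the members was -0.33 and that of all genes 0.01, and 71.8% of the members were below 0 against 47.8% of all genes. Without HK2 the median of the remaining 38 was -0.29. With miR-139-5p, 0 of 39 members passed 2-fold in either direction, against 0.201% of all genes lower and 0.0587% higher. With miR-143-5p, 2 of 39 were lower (1.0% of all genes) and 0 higher (0.356%), and the members' median was -0.16. On the array with the miR-143-3p label, 2 of 38 were lower (0.925%) and 0 higher (0.517%), with a median of -0.07, which was -0.06 without HK2.

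In PANC-1, 37 members were detected on each array. With miR-30c-5p, 0 were 2-fold lower (0.445% of all genes) and 2 were higher (0.747%). With miR-30c-2-3p, 3 were lower (4.14%) and 1 was higher (1.71%), the median being -0.14 against 0.01 for all genes. The remaining 22 glycolysis genes had a median of -0.22 on that array when HK2 was left out. The 14 detected genes of oxygen sensing and hypoxia had a median of 0.24, although 2 of them (DDIT4 and VEGFA) were among the 3 lower genes. These 2 medians lay on opposite sides of 0, as they did after miR-30a-5p (-0.02 and 0.22) and after miR-30a-3p (-0.02 and 0.11). Both values of -0.02 were smaller than the SD between spots on their arrays (0.0445 and 0.0646). The group medians were not recomputed in other settings. Under median centring, however, 1 of 37 members was below 0 after miR-30a-5p and 4 of 37 after miR-30a-3p. The glycolysis medians of these arrays were thus above 0 in that setting. After miR-30a-5p, 0 members were lower (0.263%) and 1 was higher (0.306%). After miR-30a-3p, 0 were lower (1.1%) and 1 was higher (0.372%). The counts are small on every array, and 1 gene more or less would change most of these shares.

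**Figure D1:**
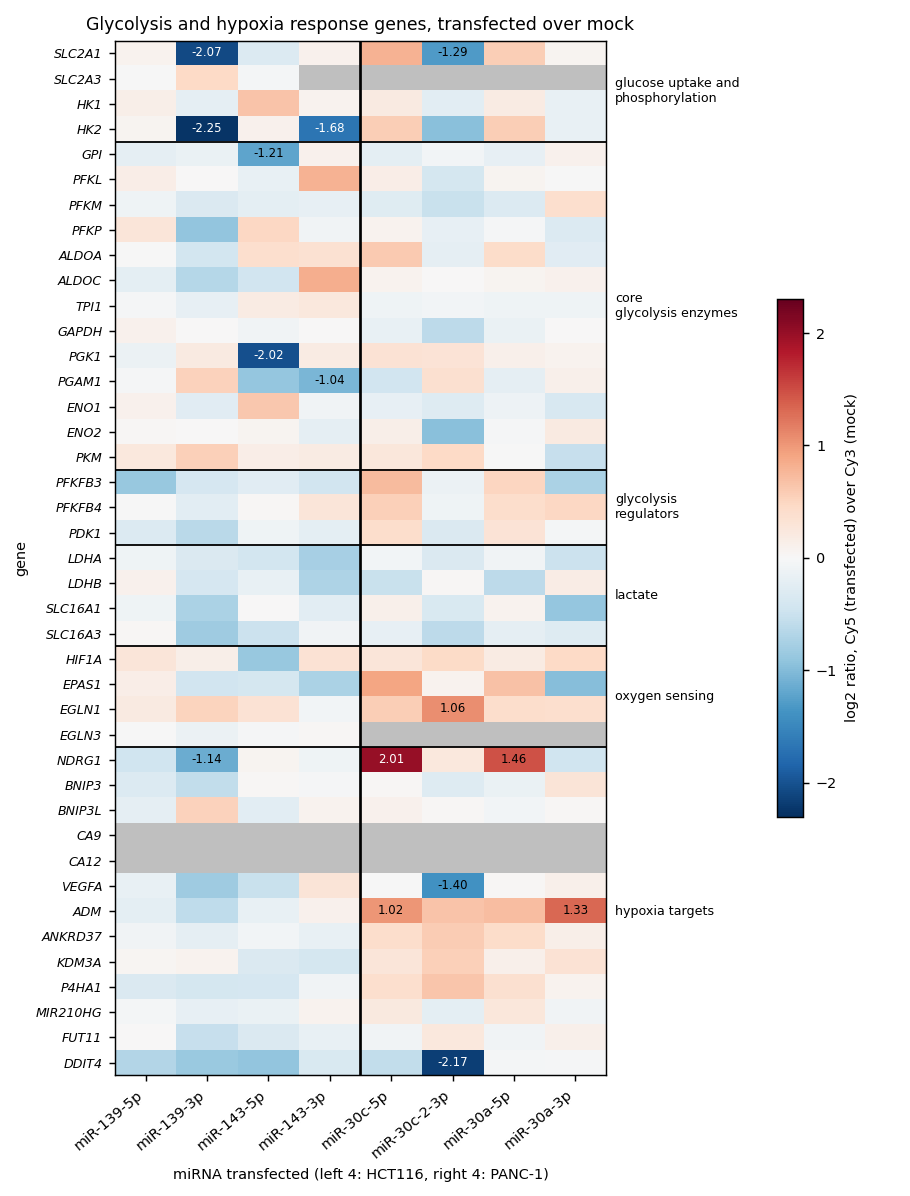
Log2 ratios of Cy5 (transfected) over Cy3 (mock) for the 41 genes (rows, grouped by role) on the 8 arrays (columns, 4 of HCT116 and 4 of PANC-1). Red is higher and blue lower in transfected cells, grey marks genes that were not detected on that array, and a number is printed where the ratio is at least 1 from 0. The 15 printed values belong to 10 genes.

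**Figure D2:**
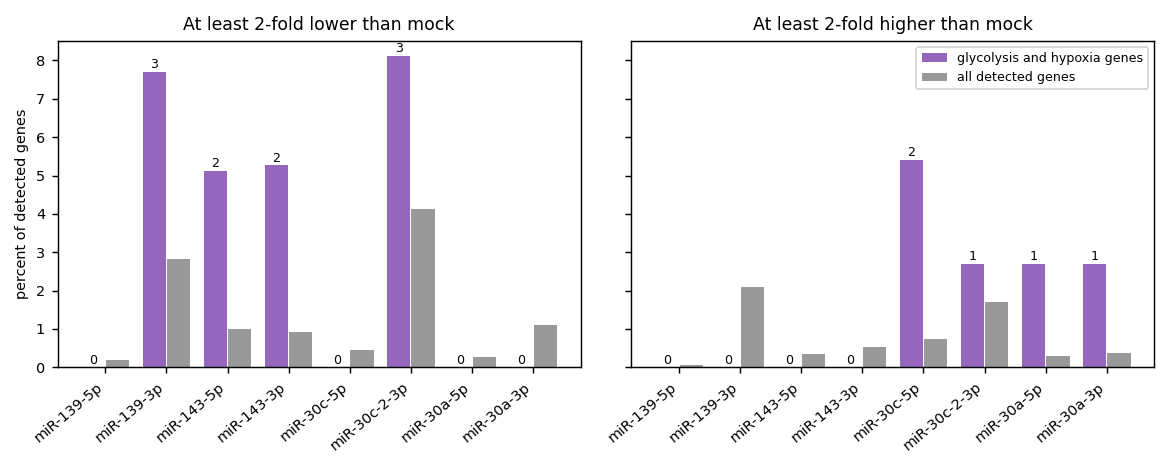
Percent of detected members (purple, with the number of members above each bar) and of all detected genes (grey) that were at least 2-fold lower (left) or higher (right) than mock on each array. Lower members were found for miR-139-3p, for miR-143-5p, for miR-30c-2-3p and on the array with the miR-143-3p label, and, at the setting reported, higher members only on the PANC-1 arrays.

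HK2, which phosphorylates glucose and binds to mitochondria, was read by a probe at chr2:75120331-75120390 (hg19, plus strand). Its mock level was 9.45 to 9.66 (log2 channel level) on the 4 HCT116 arrays. The level in transfected HCT116 cells was 9.51 for miR-139-5p, but 7.37 for miR-139-3p, stood at 9.73 for miR-143-5p and at 7.98 on the array with the miR-143-3p label. The low channels were therefore the transfected ones, and the mock channels were alike. The ratios were 0.06, -2.25, 0.10 and -1.68, and the low ones amount to 4.75-fold and 3.20-fold less HK2 RNA. In PANC-1 the ratios were 0.56 for each guide strand (miR-30c-5p and also miR-30a-5p), -0.97 for miR-30c-2-3p and -0.17 after miR-30a-3p. The miR-30c-2-3p value lay just short of 2-fold, and since HK2 was dim there (transfected level 6.29) it moved with the treatment of background, to -1.48 without background correction and -2.06 by the scanner log ratio. A further HK2 probe was not detected. HK2 is also on the study's list of miR-139-3p candidate targets, which was chosen partly on this array, so its value there is not independent evidence. The paper has separate evidence for this pair. It reports direct regulation of HK2 by this miRNA from RNA immunoprecipitation and a luciferase reporter, and lower HK2 by real-time PCR.

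SLC2A1, which encodes the glucose transporter GLUT1, was the second gene with large changes (probe at chr1:43391874-43391933, hg19, minus strand). Its ratios in HCT116 were 0.09 for miR-139-5p but -2.07 for miR-139-3p, then -0.32 for miR-143-5p and 0.10 on the array with the miR-143-3p label. It thus matched HK2 with miR-139-3p, where it was 4.20-fold lower, but was at mock level where HK2 was low on the array with the miR-143-3p label. In PANC-1 the ratios were 0.80 for miR-30c-5p but -1.29 for miR-30c-2-3p, while they were 0.56 for miR-30a-5p but 0.07 for miR-30a-3p. With miR-30c-2-3p it was 2.45-fold lower, and with both guide strands of miR-30 it was above mock by less than 2-fold, as was HK2. HK1, the widely expressed hexokinase, stayed between -0.25 and 0.66. SLC2A3 (GLUT3) was detected on 3 arrays only and was above background in both channels on 1, so its 0.45 with miR-139-3p rests on a mock channel near background (raw intensity 23.9 against 50.9 in Cy5), and the scanner log ratio gave 2.71.

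**Figure D3:**
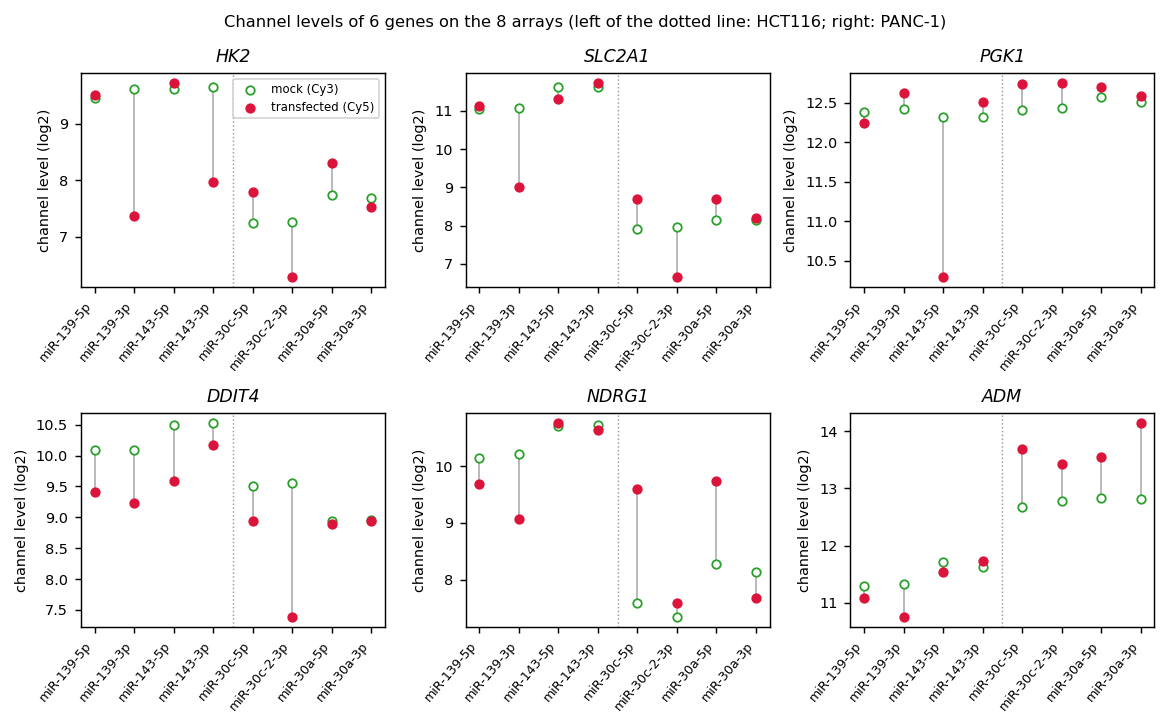
Channel levels (log2, after loess and Aquantile) of 6 genes on the 8 arrays, with mock (Cy3) as open green and transfected (Cy5) as filled red circles, joined by a line. For HK2 and SLC2A1 the separated pairs are those of miR-139-3p, miR-30c-2-3p and, for HK2, the array with the miR-143-3p label, and for PGK1 the only wide gap is with miR-143-5p.

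Most core enzymes stayed within 2-fold of mock on every array. PGK1, which makes the first ATP of the pathway, was an exception after miR-143-5p at -2.02, or 4.05-fold lower, with an SD of 0.0474 between 10 spots. On the other 7 arrays PGK1 lay between -0.14 and 0.33. GPI, the isomerase that follows hexokinase, was -1.21 on the same array and between -0.22 and 0.11 on the others. Its call ended under median centring (-0.83) and against the mean of the 4 mock channels of the line (-0.96). PGAM1, which moves the phosphate of phosphoglycerate, was -0.90 after miR-143-5p, reached -1.04 on the array with the miR-143-3p label, and lay between -0.44 and 0.53 elsewhere. A further PGAM1 probe gave -0.24 and -0.25 on those arrays, and under median centring the second value was -0.99. The near-copy PGAM4 read -1.02 and -1.20 there, and whether its probe and those of PGAM1 bind each other's transcripts was not tested.

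The other 10 core enzymes did not reach 2-fold on any array at the setting reported. PFKP, the platelet form of phosphofructokinase, was -0.90 with miR-139-3p, and its other probe gave -1.03. ENO2, the neuronal enolase, was -0.96 with miR-30c-2-3p and was dim, with -2.22 by the scanner log ratio. ALDOC and PFKL were the highest on the array with the miR-143-3p label, at 0.83 and 0.79. ENO1, the common enolase, was 0.62 after miR-143-5p, where PGK1 and GPI were low. PKM, pyruvate kinase, was 0.55 with miR-139-3p and -0.52 after miR-30a-3p. GAPDH, often used as a reference gene, lay between -0.16 and 0.10 on 7 arrays and at -0.60 with miR-30c-2-3p (SD 0.0264, 10 spots). ALDOA, PFKM and TPI1 lay between -0.51 and 0.61.

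**Figure D4:**
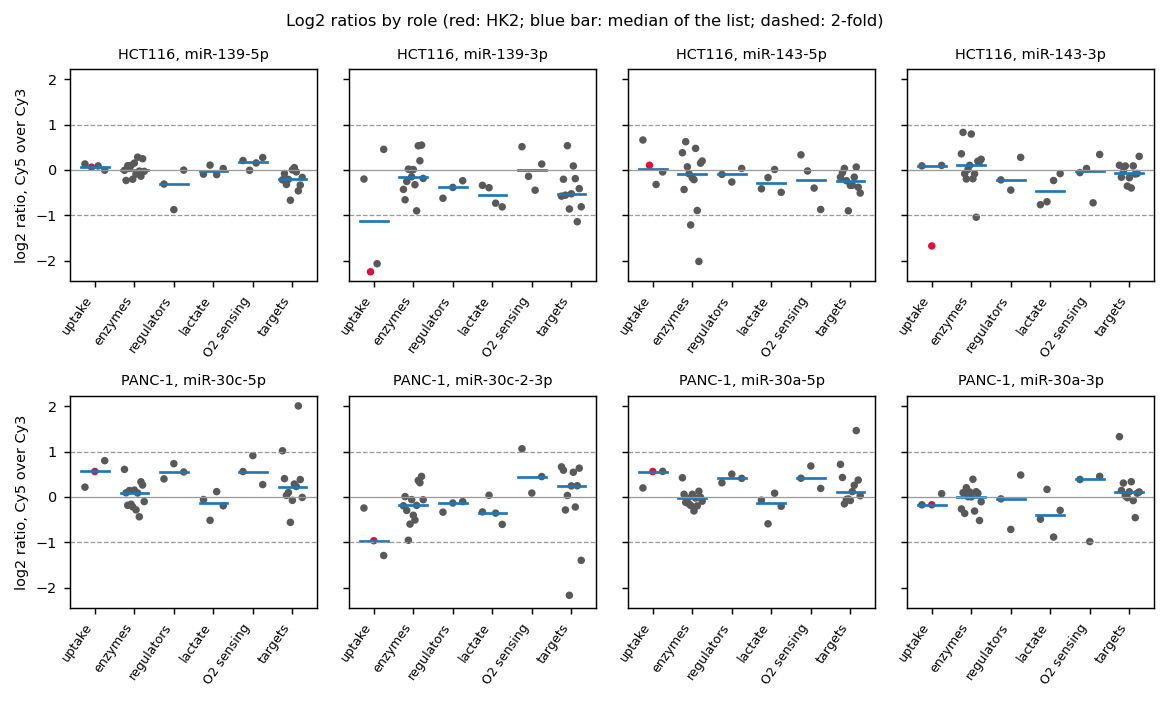
Log2 ratios of the detected members on each array by role (columns of points: glucose uptake, core enzymes, regulators, lactate, oxygen sensing and hypoxia targets), with HK2 in red, the median of each list as a blue bar and 2-fold as dashed lines. With miR-139-3p the uptake median is -1.14 and that of the core enzymes -0.15.

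Some of these genes carried a seed match inside their own probe. Probes were searched for the 7 letters that pair with bases 2 to 8 of the transfected miRNA or with bases 2 to 7 followed by A. In all, 6 such pairs of a member and a miRNA were found, and 3 of them were among the lowest values of the set. These 3 are shown, first the miRNA with its seed (bases 2 to 8) in capitals from RefSeq and then 26 bases of the probe on the sense strand with the match in capitals.
miR-143-5p: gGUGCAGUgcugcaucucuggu
PGK1, chrX:77381486-77381511: ctcatcttcACTGCACcctggatttg
miR-143-3p: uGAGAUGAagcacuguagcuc
HK2, chr2:75120350-75120375: aatagcaaaTCATCTCAaatccttga
miR-30a-3p: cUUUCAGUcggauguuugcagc
EPAS1, chr2:46613666-46613691: acACTGAAAAatattccaagcttcat
PGK1 with miR-143-5p was at -2.02, HK2 on the array with the miR-143-3p label at -1.68 and EPAS1 after miR-30a-3p at -0.99. The HK2 and EPAS1 matches extend to 8 letters. The other 3 pairs were not low, with PGK1 on the array with the miR-143-3p label at 0.19, LDHB with miR-139-5p at 0.10 and PKM with miR-30c-2-3p at 0.45. Over all detected genes on the array with the miR-143-3p label, where the HK2 match lies, genes with the match were 2-fold lower about as often as the rest (1.01% against 0.924%) and their median was 0.03 against 0.01. With the other pair of miRNAs shown, 5.14% of the 175 genes whose probe had the miR-143-5p match were 2-fold lower against 0.964% of the rest, and 6.25% of the 320 genes with the miR-30a-3p match against 1.02%. The probes cover only a short stretch of each transcript, so a gene without a match here may hold one elsewhere, and a match is a description and not a shown site.

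No member had a match in its probe to miR-139-3p, the miRNA with the lowest median of the set, nor to the 2 guide strands of miR-30, and for miR-30c-2-3p the PKM match was the only one. The sequences of these 4 miRNAs are given because members passed 2-fold on each of their arrays, and the guide strands share 1 seed.
miR-139-3p: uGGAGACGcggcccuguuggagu
miR-30c-2-3p: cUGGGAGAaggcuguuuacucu
miR-30c-5p: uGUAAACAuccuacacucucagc
miR-30a-5p: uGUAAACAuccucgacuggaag

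The 3 regulators were 2-fold changed on no array at the setting reported. PFKFB3, which makes the activator of phosphofructokinase, was -0.88 with miR-139-5p and -0.72 after miR-30a-3p, and it was 0.73 and 0.50 with the guide strands of miR-30c and miR-30a. A further PFKFB3 probe read -0.06, -0.03 and 0.07 on the first 3 of these arrays in that order. PFKFB4, of the same family, was highest with miR-30c-5p at 0.55. PDK1, the kinase that keeps pyruvate from being oxidised in mitochondria, was -0.63 with miR-139-3p and 0.40 for miR-30c-5p. PFKFB3 with miR-139-5p was past 2-fold lower without background correction (-1.10) and by the scanner log ratio (-1.22). By the scanner log ratio PFKFB3 after miR-30a-3p and PDK1 with miR-139-3p were also past 2-fold lower. Under median centring PFKFB3 was past 2-fold higher with miR-30c-5p. All 3 regulators were below 0 with miR-139-3p and above 0 with both miR-30 guide strands, with medians of -0.39, 0.55 and 0.41.

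The genes of lactate were also all under 2-fold at the setting reported. With miR-139-3p the 4 lay between -0.82 (SLC16A3, the lactate exporter MCT4) and -0.34 (LDHA, which makes lactate), with a median of -0.56. On the array with the miR-143-3p label, LDHA was -0.77 and LDHB, which favours the reverse reaction, -0.70. LDHB was -0.52 for miR-30c-5p and -0.59 for miR-30a-5p, where LDHA was -0.06 and -0.07. SLC16A1 (the lactate carrier MCT1) was -0.89 after miR-30a-3p and -1.70 there by the scanner log ratio. With miR-139-3p SLC16A1 was past 2-fold lower without background correction and by the scanner log ratio.

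Of the oxygen sensing genes, EGLN1 passed 2-fold on 1 array. EGLN1 encodes PHD2, the main prolyl hydroxylase acting on HIF, and its ratio was 1.06, or 2.09-fold higher, with miR-30c-2-3p. On the other PANC-1 arrays it was 0.56, 0.41 and 0.38, and in HCT116 it was between -0.06 and 0.51. HIF1A, the oxygen-regulated subunit HIF-1α, was -0.87 with miR-143-5p (SD 0.0232, 10 spots), where its other probe gave -0.78. It stayed between 0.13 and 0.45 on the other 7 arrays. EPAS1, which encodes HIF-2α, was 0.91 for miR-30c-5p but 0.08 for miR-30c-2-3p, while it was 0.68 for miR-30a-5p but -0.99 for miR-30a-3p. In HCT116 it ran from -0.73 to 0.15. EGLN3, another prolyl hydroxylase, was near background on the 4 arrays where it was detected and was not detected in PANC-1.

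NDRG1, a stress and differentiation gene and a classic hypoxia target, had the highest ratio of the set. With miR-30c-5p its level went from 7.59 in mock to 9.60, a ratio of 2.01 (4.01-fold higher), and after miR-30a-5p from 8.28 to 9.74, a ratio of 1.46 (2.75-fold higher). Both transfected levels thus lay above their own mock, and the mock channels themselves differed by 0.74 between the miR-30a and miR-30c arrays. With the passenger strands it was 0.24 (miR-30c-2-3p) and -0.46 (miR-30a-3p). In HCT116 NDRG1 was -1.14 with miR-139-3p, 2.21-fold lower, and -0.46, 0.06 and -0.09 on the others.

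DDIT4 (REDD1), an inhibitor of mTORC1 induced by low oxygen and other stresses, had the second lowest ratio of the set. With miR-30c-2-3p its level went from 9.56 to 7.39, a ratio of -2.17 or 4.51-fold lower, with an SD of 0.0537 between 10 spots. In HCT116 it was -0.67, -0.86, -0.90 and -0.36 for miR-139-5p, then miR-139-3p, then miR-143-5p and last the array with the miR-143-3p label, all short of 2-fold. With the other PANC-1 miRNAs it was -0.56, -0.05 and -0.02. The PANC-1 mock channels differed by -0.58 (miR-30a minus miR-30c arrays) for this gene, which is as large as the miR-30c-5p ratio.

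VEGFA, the main growth factor for blood vessels, was -1.40 with miR-30c-2-3p, or 2.64-fold lower, and its other probe gave -0.56, so that the median of both probes was -0.98. It was -0.81 with miR-139-3p and between -0.51 and 0.30 elsewhere. ADM, which encodes the vessel-widening peptide adrenomedullin, went the other way on the same array. Its PANC-1 ratios were 1.02 for miR-30c-5p and 0.66 for the passenger strand miR-30c-2-3p, then 0.72 for miR-30a-5p and 1.33 for the passenger strand miR-30a-3p, and its HCT116 ratios -0.22, -0.58, -0.16 and 0.10. The values with miR-30c-5p and miR-30a-3p were 2.02-fold and 2.51-fold higher, the SD between 10 spots being 0.0467 and 0.0814. Against the mean of the 4 mock channels of the line the first of them was 0.91, under 2-fold.

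The other 9 hypoxia targets were never 2-fold from mock at the setting reported. P4HA1, a collagen prolyl hydroxylase, and ANKRD37 reached 0.63 and 0.59 with miR-30c-2-3p, and KDM3A, a histone demethylase, 0.54. BNIP3, a mitophagy receptor, was -0.56 with miR-139-3p, while BNIP3L, its relative, was 0.53. Other BNIP3L probes disagreed with the one used, reading as low as -1.03 for miR-143-5p, -1.24 for miR-30c-5p and -1.02 after miR-30a-5p, where the probe with the highest signal read -0.24, 0.09 and -0.06. FUT11, a fucosyltransferase, was -0.53 with miR-139-3p, and MIR210HG, the host transcript of miR-210, was between -0.22 and 0.25 and dim throughout. CA9 and CA12, carbonic anhydrases that are strong hypoxia markers, were not well above background in either channel of any array.

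Of the 41 genes, 6 are on the study's list of genes lowered by siRNAs against KRT80, a keratin gene that the study followed up: HK2, NDRG1, PDK1, EGLN3, FUT11 and MIR210HG. With miR-139-3p all 6 were below 0, as were 71.8% of all detected members and 47.8% of all detected genes. Of the 6, 2 were 2-fold lower, against 2.82% of all detected genes, and the median was -0.58. EGLN3 was near background there. With miR-143-5p, 0 of the 6 were 2-fold lower, against 1.0% of all detected genes, and the median was -0.06. KRT80 itself was -1.14 there and -1.12 with miR-139-3p. These KRT80 values depend on the mock channel used, since its mock level was 9.61 and 7.52 on these arrays. Against the mean mock of the line KRT80 was -0.13 with miR-143-5p, which ends that call, and with miR-139-3p it was -2.19. By the scanner log ratio these values were -1.25 and -2.19. After miR-30c-5p, where KRT80 was 1.43, 4 of the 5 detected were above 0 with a median of 0.40. Of all 37 detected members 25 were above 0 there, and 46.2% of all detected genes were below 0. On the remaining arrays KRT80 and the median of its listed genes often differed. They were -0.94 and -0.03 for miR-139-5p, and 0.41 and -0.13 on the array with the miR-143-3p label. In PANC-1 they were 0.78 and -0.22 with miR-30c-2-3p, 0.74 and 0.31 after miR-30a-5p, and 0.45 and -0.08 after miR-30a-3p. A part of KRT80 in these values was not tested.

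In the mock cells the members differed between the lines more often upward in HCT116. Of the 37 members tested, 6 were at least 2-fold higher in mock HCT116 than in mock PANC-1, against 6.64% of all genes, and 1 was lower, against 6.31%. SLC2A1 had a mean Cy3 level of 11.34 in HCT116 (11.04 to 11.63 over 4 arrays) and 8.04 in PANC-1 (7.90 to 8.14), a difference of 3.31. NDRG1 differed by 2.60, HK2 by 2.10, ALDOC by 1.36, PFKM by 1.24 and DDIT4 by 1.06, all without overlap of the arrays of the 2 lines. Lack of overlap does not set these genes apart. It was also seen for SLC2A3 and EGLN3, which were near background and differed by only 0.14 and 0.16. Its share over all genes is not given here. ADM was higher in PANC-1, at 12.77 against 11.49. Markers of the lines were mixed. Of 6 epithelial markers, EPCAM had mock levels of 12.39 to 12.52 in HCT116 and 7.81 to 8.23 in PANC-1, and CDH1 8.70 to 9.51 and 5.87 to 6.30. CDX1 was alike in the lines (6.43 to 6.69 and 6.57 to 6.70), LGALS4 was detected in PANC-1 only, KRT20 was near background and CDH17 was detected in neither. Of 6 mesenchymal markers, VIM (6.13 to 7.13 in HCT116 and 15.38 to 15.61 in PANC-1), SPARC, ZEB1 and CDH2 were higher in PANC-1, while FN1 and TWIST1 were at or near background in both lines. PFKP, PGK1, PKM and SLC16A3 were among those whose ranges overlapped. Within a line, 0 of the 37 members were 2-fold apart between the mock channels of the 2 precursors, where all genes gave 0.821% higher and 0.362% lower for miR-143 against miR-139 arrays in HCT116, and 0.162% and 0.0724% for miR-30a against miR-30c arrays in PANC-1. The arrays of a line may share mock RNA, so these ranges are not a spread between cultures.

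**Figure D5:**
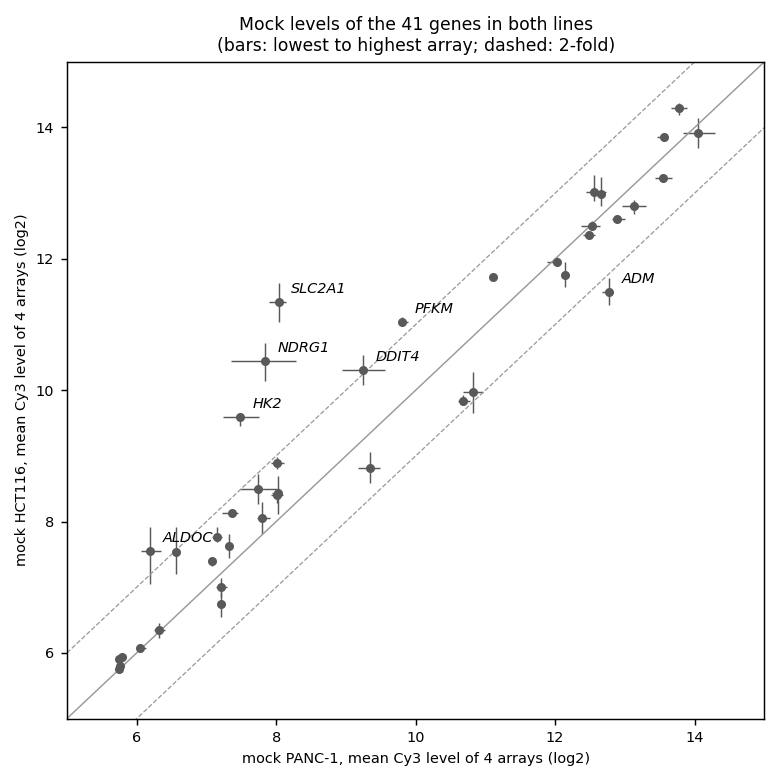
Mean mock (Cy3) level of the 41 genes in HCT116 (y axis) against PANC-1 (x axis), log2 channel level after loess and Aquantile. Bars run from the lowest to the highest of 4 arrays, dashed lines mark 2-fold, and the 7 genes beyond them are named. SLC2A1, NDRG1 and HK2 lie farthest above the diagonal.

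HIF binds the core letters ACGTG or GCGTG, and these were searched on both strands of the RefSeq promoters (GRCh38.p14, 250 bases before to 50 after a transcript start). An entry was found for 35 of the 41 members, with 63 start sites. The core was present in 44 of the 63 windows (69.8%), and in 48.4% of all 35116 windows. Counted by gene, 33 of 35 members (94.3%) had it in at least 1 window against 52.4% of 27305 genes, but members have more windows per gene, which raises the count. PGAM1 and EGLN3 were the members without it. With nearly all members holding the core, members with and without it could not be compared, and a match does not show that HIF binds there.

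Genes of the same pathways outside the set were read from lists written for comparison. Of 35 further isozymes and carriers of glycolysis, 23 or 24 were detected per array and at most 1 was 2-fold lower or higher on any array. By array, 0.201% to 4.14% of all detected genes were 2-fold lower and 0.0587% to 2.11% higher. C12orf5 (TIGAR, which lowers fructose 2,6-bisphosphate and is a known p53 target) was 1.79 with miR-139-3p, and PFKFB2 was -1.03 with miR-30c-2-3p and 1.14 after miR-30a-3p. All 8 genes of the pentose phosphate pathway were detected, and RPIA, ribose 5-phosphate isomerase, was -1.66 with miR-139-3p and -1.17 with miR-143-5p, while TALDO1 was -1.15 with miR-30c-2-3p. Under median centring RPIA with miR-143-5p was -0.92 and TALDO1 with miR-30c-2-3p was -0.79, both under 2-fold. None of the 6 further oxygen sensing genes, among them ARNT and VHL, reached 2-fold on any array.

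Of 38 further hypoxia targets, 32 to 37 were detected per array. With miR-139-3p 3 of 32 were lower (ALDH1A3 -1.23, NFIL3 -1.16 and AK4 -1.05) and 2 higher (BHLHE41 1.03 and SLC2A14 2.54). Of all detected genes, 2.82% were lower and 2.11% higher on that array. SLC2A14 is a near-copy of SLC2A3, and how far the probes of the 2 genes read each other was not tested. With miR-30c-2-3p FAM117B was -1.33 and GYS1 (glycogen synthase) -1.08. With the miR-30 guide strands ANGPTL4, a lipase inhibitor, was 2.36 (miR-30c-5p) and 2.02 (miR-30a-5p), and PLOD2, a collagen lysyl hydroxylase, 1.17 and 1.15. After miR-30a-3p ANGPTL4 was -1.67 and HILPDA 1.003. With miR-143-5p ANGPTL4 was 1.29 and MXI1 -1.14. None of those detected was past 2-fold for miR-139-5p, where 0.201% of all genes were lower and 0.0587% higher. The same held on the array with the miR-143-3p label, where these shares were 0.925% and 0.517%.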

How the data were processed

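Per the file headers, the scanner software (Feature Extraction 11.5.1.1, grid build hg19) gave the spot intensity of both channels and a log10 ratio. The table that the authors deposited holds the same log10 ratio (largest difference 0 over 62976 spots an array), converted to log2 for an alternative. These intensities went through limma 3.58.1 (with the data.table package, version 1.17.8, in R 4.3.3): normexp background correction (offset 50), loess within each array with control spots at weight 0, outlier spots left out, spots of a probe averaged, and the probe with the highest mean signal taken per gene. Channel levels were taken after Aquantile. No spot was saturated, and the median intensity was 22.2 to 23.3 in Cy3 and 23.7 to 26.5 in Cy5 over backgrounds of 17 to 20, so the offset pulls ratios of dim genes toward 0. Python 3.11.15 (pandas 2.3.3, numpy 2.4.6, matplotlib 3.10.9) made the tables and plots, and the processing script was tested on simulated data.

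Groups came from the labels. Each miRNA had 1 array, so a fixed rule of 2-fold (log2 ratio of 1) replaced tests. The genes and lists were chosen with earlier results of these data known. Named genes were HK2, every member past 2-fold on an array, the lowest and highest of a role list where it is described, and genes past 2-fold in the other lists, apart from an item that is not reported here. Members named for other reasons (disagreeing probes, dim signal, values short of 2-fold) were chosen after their values were seen. Alternatives were no background correction, the scanner log ratio, median centring, the median over detected probes, no filter on dim probes, and, added after seeing the data, the mean Cy3 of the line as reference. For mock levels the alternative was quantile scaling of the Cy3 channels. Gene names are those of the array design, promoter and miRNA sequences are from RefSeq, and no transcript annotation was used, so exon and UTR positions of probes are not given.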

Additional observations from a re-analysis of the deposited data

Results flagged for a closer look

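Among 74 groups of 4 mock channels (37 detected members in each line), 1 had a channel far from the other 3. For PFKP in mock PANC-1 the Cy3 level was 11.89 on the miR-30a-5p array and 12.07 to 12.09 on the other 3, and this gap was 0.898 of the whole range. The difference is small in size, and chance alone flags about 1 in 20 such groups.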

How the results depend on the processing

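No paired analysis was possible because each miRNA was on 1 array. With 1 array a group, no array could be left out. A median was taken as moved when it shifted by more than the SD between spots, since no spread between cultures was measured. Of the values recomputed, none past 2-fold changed sign. The scanner log ratio, which has no offset, gave larger ratios for dim genes. The shares in brackets are those of all detected genes in the same setting and direction. It gave 9 members lower (9.82%) and 1 higher (10.3%) with miR-139-3p (median -0.46), 5 lower (4.75%) with miR-143-5p (median -0.25), 2 higher (4.32%) on the array with the miR-143-3p label, 6 lower (11.8%) and 2 higher (9.21%) after miR-30c-2-3p, 1 lower (1.77%) with miR-139-5p, 3 lower (4.11%) after miR-30a-3p (median -0.0498), and a median of 0.14 after miR-30a-5p. Without background correction there were 5 lower (4.47%) with miR-139-3p, 5 (6.77%) with miR-30c-2-3p (median -0.22), 2 (1.86%) after miR-30a-3p and 1 (0.382%) for miR-139-5p. Median centring, which leaves the trend with signal in place and moves the median of all genes to as much as 0.30 (miR-30a-3p), gave 6 higher (3.98%) with miR-30c-5p (median 0.60), 5 (8.82%) after miR-30a-3p (median 0.63), 3 (1.41%) after miR-30a-5p (median 0.42), 2 (3.47%) with miR-30c-2-3p (median 0.0918), 1 higher (1.0%) and 1 lower (0.512%) with miR-143-5p (median 0.0200), 1 lower (0.85%) on the array with the miR-143-3p label (median 0.0224), and a median of 0.22 with miR-139-5p, where all genes had 0.10. The median over detected probes gave 1 lower (0.64%) on the array with the miR-143-3p label and a median of -0.26 with miR-139-3p. Without the filter on dim probes the medians were -0.26 with miR-139-3p and -0.0633 with miR-30c-2-3p. The mean mock of the line, chosen after seeing the data, gave 5 lower (2.86%) with miR-139-3p, 5 (3.82%) with miR-30c-2-3p, 1 higher (0.584%) with miR-30c-5p and a median of 0.10 after miR-30a-5p. In all, 79 counts and 32 medians stayed close to the reported value, and 23 counts and 16 medians moved. The cause was not tested. A count was taken as close when it was equal to the reported one or, with both above 0, within a fixed factor of it. Of the 79 counts, 16 came from dropping the filter on dim probes, which altered no count. Another 6 came from quantile scaling of Cy3, which was run on mock levels only. Some ratios passed 2-fold in all 7 settings run on single genes, the reported one included. In HCT116 these were HK2, SLC2A1 and NDRG1 with miR-139-3p, HK2 on the array with the miR-143-3p label and PGK1 with miR-143-5p. In PANC-1 they were SLC2A1, DDIT4 and EGLN1 with miR-30c-2-3p, NDRG1 with both guide strands and ADM after miR-30a-3p. Of the 7 settings, 2 could not alter these ratios. Dropping the filter leaves a detected gene as it is, and the median over detected probes does so for a gene with 1 detected probe.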

Other observations

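MYC, a transcription factor that drives many glycolysis genes, was low on the 3 arrays on which HK2 was low. Its ratios in HCT116 were -0.45 for miR-139-5p but -2.92 for miR-139-3p, then -0.63 for miR-143-5p and -1.08 on the array with the miR-143-3p label, and in PANC-1 0.32 for miR-30c-5p but -1.70 for miR-30c-2-3p, then 0.26 for miR-30a-5p but -0.30 for miR-30a-3p. Against the mean mock of the line MYC was -0.82 on the array with the miR-143-3p label, under 2-fold. By that reference it was -3.15 with miR-139-3p and -1.67 with miR-30c-2-3p. Of the 15 genes of the AKT and MYC list, RHEB was -1.03 with miR-139-3p, and -0.98 against the mean mock of the line. AKT1 was -1.53, RICTOR 1.14 and TSC1 1.21 with miR-30c-2-3p. TXNIP, a gene induced by glucose, was not detected in HCT116 and was 1.42 after miR-30a-3p. A part of any of these genes in the HK2 values was not tested.

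Proliferation and cell identity genes were read as further lists. Of 10 proliferation genes, MCM2 was -2.25 and MCM3 -1.29 with miR-139-3p, and TYMS -1.51, CCNB1 -1.25 and MCM3 -1.01 on the array with the miR-143-3p label, where the median of the 10 was -0.73. TOP2A was -1.01 with miR-30c-2-3p. Of the 6 epithelial markers 3 or 4 were detected per array, and none of these was 2-fold changed at the setting reported. CDH1 was -0.89 with each strand of miR-139. It was past 2-fold lower there by the scanner log ratio (-1.11 for miR-139-5p and -1.09 for miR-139-3p). Against the mean mock of the line it was -1.30 and -1.27. Of the 6 mesenchymal markers VIM was -1.63 for miR-30c-5p and -1.65 for miR-30a-5p, with -1.35 for the passenger strand miR-30c-2-3p. Under median centring these VIM values were -0.92, -1.02 and -0.89.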
